A study of Mus musculus with 4 samples.

Results

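U90926, a transcript named after its sequence record, and the acute phase and innate defence genes Lcn2, Slpi, Ptx3, Saa3, Hp, C3, Cfb and Steap4 were followed in adult mouse mesoangioblasts (AdmMABs) whose PW1 had been knocked down with a hairpin (shPW1) and in cells with a scramble hairpin (Ctl). These 9 genes were chosen from the shPW1 against Ctl contrast of the same arrays with its values in view. Their differences between the groups are therefore described here and were not tested. A gene was read from the probe set that carries its symbol alone, and 8 of the 9 genes, of 19938 genes on the array in all, had such a probe set, 1 each. C3 had none in the annotation used and has no value here.

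AdmMABs are progenitor cells of the vessel wall with the capacity to make muscle fibres. The polyclonal population came from the tibialis anterior of adult male C57/BL6 mice, and all cells were transduced with a lentiviral vector and were proliferating in medium with fetal bovine serum when RNA was taken. Each group had 2 RNA extractions, each on 1 Affymetrix Mouse Gene ST array, and nothing in the labels gives them separate cultures or animals, so that the spread between replicates may be technical. One hairpin against PW1 was used, in the vector pLV-H1, and the vector of the control hairpin on the arrays is not settled by the sources used here. An effect of the vector or of this hairpin and the loss of PW1 cannot be told apart. The authors deposited log2 expression values made by RMA, a procedure that corrects background, normalizes between arrays and summarizes probes.

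Acute phase proteins are secreted mainly by the liver when infection or injury releases interleukin-1, interleukin-6 and tumour necrosis factor, and many of them are also made locally by fibroblasts and epithelia. Their genes are known targets of NF-kappaB with its cofactor I-kappaB-zeta, of C/EBP factors and of STAT3. The proteins bind iron, haemoglobin or microbial surfaces, block proteases released by neutrophils, or feed the complement cascade.

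Peg3, the gene of PW1, checked the labels. Its log2 expression was 8.67 and 8.70 in Ctl and 6.22 and 6.47 in shPW1, a difference of -2.34 (standard error 0.10, adjusted p = 0.00428 from limma). The median log2 value of an array lay between 5.40 and 5.49. Across probe sets, the difference between replicates had an SD of 0.15 for Ctl and 0.17 for shPW1. No detection call was available, so olfactory receptor genes were used as a yardstick of dimness. Their 1035 probe sets had a 95th percentile that averaged 4.96 over the 4 arrays, and a value at or under that of its own array is called here within the background range. Of the progenitor markers, Pdgfrb, Cd34, Col1a1 and Vim lay above that range on every array, while 1 of 16 measured, the pericyte gene Rgs5, lay within it on every array.

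The bases before the annotated transcript start were available for 7 of the 9 genes, without Hp and Cfb, from RefSeq on GRCm38.p6. Those of 6 measured genes are shown because they are the stretches in which sites of the known regulators were sought. They lie at chr5:92215409-92215658 (minus strand) for U90926, chr2:32387740-32387989 (minus strand) for Lcn2, chr2:164356508-164356757 (minus strand) for Slpi, chr3:66219637-66219886 (plus strand) for Ptx3, chr7:46715677-46715926 (minus strand) for Saa3 and chr5:7960222-7960471 (plus strand) for Steap4. Each runs 5′ to 3′ and ends at the base before the start, and capitals mark every match to a C/EBP, kappaB or STAT motif on either strand. For Saa3 the start used lies inside the annotated span of the gene, chr7:46711998-46719615.
U90926: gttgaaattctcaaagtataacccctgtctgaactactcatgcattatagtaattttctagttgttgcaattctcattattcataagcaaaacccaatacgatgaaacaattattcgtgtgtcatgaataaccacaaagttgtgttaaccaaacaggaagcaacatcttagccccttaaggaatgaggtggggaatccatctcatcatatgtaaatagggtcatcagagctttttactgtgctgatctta
Lcn2: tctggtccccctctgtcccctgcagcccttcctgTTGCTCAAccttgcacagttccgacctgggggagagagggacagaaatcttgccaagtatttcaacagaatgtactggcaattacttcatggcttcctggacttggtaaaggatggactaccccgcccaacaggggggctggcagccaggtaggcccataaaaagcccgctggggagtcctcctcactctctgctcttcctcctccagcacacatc
Slpi: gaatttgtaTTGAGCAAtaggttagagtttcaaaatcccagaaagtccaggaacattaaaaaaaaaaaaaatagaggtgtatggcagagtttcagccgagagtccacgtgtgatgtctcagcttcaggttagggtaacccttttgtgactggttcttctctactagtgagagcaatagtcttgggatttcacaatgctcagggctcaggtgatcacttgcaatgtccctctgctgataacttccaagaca
Ptx3: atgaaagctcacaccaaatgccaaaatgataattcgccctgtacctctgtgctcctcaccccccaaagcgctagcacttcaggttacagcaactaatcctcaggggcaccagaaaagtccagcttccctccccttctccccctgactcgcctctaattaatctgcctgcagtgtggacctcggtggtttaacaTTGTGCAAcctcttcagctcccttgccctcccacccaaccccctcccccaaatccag
Saa3: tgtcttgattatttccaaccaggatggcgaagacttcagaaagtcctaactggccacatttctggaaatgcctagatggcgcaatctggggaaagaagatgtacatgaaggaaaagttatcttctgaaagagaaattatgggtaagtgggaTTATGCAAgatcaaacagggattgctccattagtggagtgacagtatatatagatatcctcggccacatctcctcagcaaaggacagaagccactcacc
Steap4: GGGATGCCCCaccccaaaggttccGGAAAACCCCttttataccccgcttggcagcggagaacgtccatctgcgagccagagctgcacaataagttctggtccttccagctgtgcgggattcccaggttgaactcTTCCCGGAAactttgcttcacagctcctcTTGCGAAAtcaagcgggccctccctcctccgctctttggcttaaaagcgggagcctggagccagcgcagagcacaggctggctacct

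The C/EBP motif was searched as TTNNGCAA, with N for any base, the STAT motif as TTCNNNGAA, and the kappaB and PW1 motifs by their longer consensus. The letters were settled after the sequences had been seen, so nothing is read from how the matches compare with the shares of all promoters. A C/EBP match was found in 6 of the 7 genes, the exception being U90926, against 9.56% of all 32851 promoters searched in the same way. Steap4 alone had other matches, with 2 kappaB matches and 1 STAT match, and no match overlapped another. A kappaB match was present in 3.90% of all promoters, a STAT match in 7.02% and a PW1 match in 0.387%, and none of the 7 genes had a PW1 match. A match is a string of letters and does not show that a factor binds there.

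**Figure D1:**
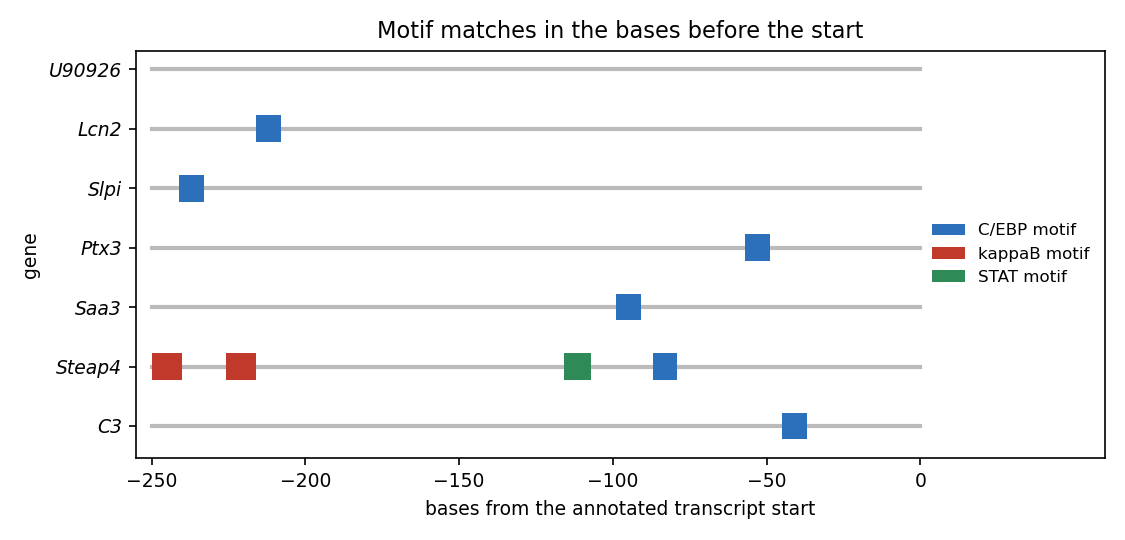
Motif matches in the 250 bases before the annotated start (horizontal axis, bases from the start) of the 7 genes with a promoter sequence (vertical axis). Blue boxes are C/EBP, red boxes kappaB and green boxes STAT matches on either strand; U90926 has none, and C/EBP matches of the other genes begin between 241 and 45 bases before the start.

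U90926, annotated as a long non-coding RNA, was above the background range in Ctl and higher in shPW1. Its log2 expression was 7.09 and 6.90 in Ctl and 10.50 and 10.56 in shPW1. The shPW1 arrays lay 3.41 to 3.66 above the Ctl arrays over the 4 pairs of arrays, and the group means of 6.99 ± 0.13 (SD, n = 2) and 10.53 ± 0.04 (SD, n = 2) differed by 3.54 on the log2 scale, or 11.6-fold, the largest increase among the 19938 genes. In such populations, more expressing cells and more RNA per cell cannot be told apart.

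The genes whose pattern was nearest to that of U90926 over the 4 arrays were Tmem176b, Cxcl5 and Cxcl1. Likeness was the Euclidean distance between log2 values after subtraction of each gene's Ctl mean, and it was 0.66, 0.97 and 1.2. Tmem176b, a membrane protein gene, had log2 values of 5.79 and 5.39 in Ctl and of 8.70 and 8.66 in shPW1. The neutrophil chemokine Cxcl5 went from 9.01 and 8.93 to 11.82 and 11.83, and its relative Cxcl1 from 7.78 and 7.58 to 10.36 and 10.38. In all 3, as in U90926, both shPW1 arrays were above both Ctl arrays and close to each other. The 3 genes were chosen by this distance on the same arrays, so that likeness follows from the choice and nothing is read from it.

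Ptx3 encodes a long pentraxin, a soluble pattern recognition molecule that stromal cells secrete and that binds microbes and complement C1q. Its log2 expression was 8.94 and 8.84 in Ctl and 10.09 and 10.11 in shPW1. All 4 values were far above the background range and the groups did not overlap. The difference of the means was 1.21 (2.31-fold), and the pairs of arrays differed by 1.14 to 1.27. The short pentraxins Crp and Apcs, classical acute phase proteins looked at after the values were seen, stayed within the background range on all 4 arrays.

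Lcn2, Saa3 and Hp encode secreted acute phase proteins, and the Ctl values of all 3 were within the background range. Lcn2 encodes lipocalin-2, which withholds iron from bacteria by binding their siderophores. Its log2 expression was 4.63 and 4.63 in Ctl, within the background range, and 6.3 and 6.38 in shPW1, above it. The difference of 1.71 (3.27-fold, 1.66 to 1.75 over the pairs of arrays) thus starts from a level at which expression in Ctl was not shown.

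Saa3 encodes the serum amyloid A protein that mouse macrophages, fat and other tissues outside the liver produce. Its log2 values were 3.88 and 3.97 in Ctl and 4.65 and 4.91 in shPW1. The groups did not overlap and the means differed by 0.86 (1.81-fold), yet all 4 values lay within the background range. Hp encodes haptoglobin, which captures free haemoglobin. Its log2 values were 4.87 and 4.61 in Ctl, within the background range, and 5.01 and 5.43 in shPW1, just above it. The difference of the Hp means was 0.48, with 0.15 to 0.82 over the pairs of arrays, and it was 0.27 without shPW1 replicate 2 and 0.69 without shPW1 replicate 1.

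Slpi encodes the secretory leukocyte protease inhibitor, which blocks neutrophil elastase and has antimicrobial activity. Its log2 expression was 5.87 and 6.20 in Ctl and 7.80 and 7.66 in shPW1. Every value was above the background range, and the lowest shPW1 array exceeded the highest Ctl array by 1.46. The means differed by 1.69 (3.23-fold).

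Cfb and Steap4 were not separated between the groups. Cfb encodes factor B, the protease of the alternative complement pathway that acts on C3. Its log2 values were 5.16 and 5.22 in Ctl and 5.28 and 5.19 in shPW1, just above the background range on each array. The groups overlapped and the pairs of arrays differed by -0.03 to 0.12. Steap4 encodes a ferrireductase of the plasma membrane that tumour necrosis factor and interleukin-6 induce in fat cells. Its log2 values were 4.48 and 4.34 in Ctl and 4.59 and 4.14 in shPW1, all within the background range. The difference of its means was -0.04, with -0.34 to 0.25 over the pairs of arrays, and turned to 0.02 when array medians were subtracted.

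**Figure D2:**
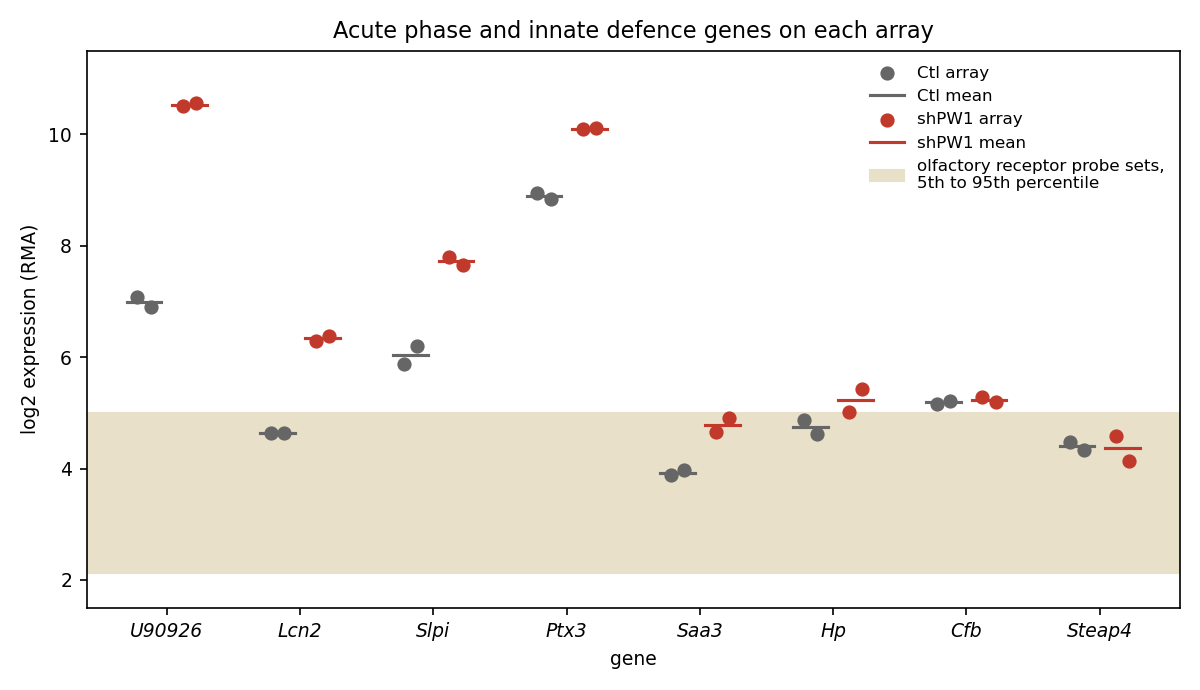
Log2 expression (vertical axis) of the 8 measured genes (horizontal axis). Points are single arrays (2 Ctl in grey, 2 shPW1 in red), short lines are group means and the shaded band spans the 5th to the 95th percentile of olfactory receptor probe sets; Saa3 and Steap4 stay inside the band on all arrays, and Lcn2 leaves it in shPW1.

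Both shPW1 arrays were above both Ctl arrays for 6 of the 8 genes. The same held for 27.0% of all genes, and the reverse for 28.5%. Since the genes were chosen from this contrast, nothing is read from that count. The median log2 difference of the 8 genes was 1.03, beside -0.01 for all genes. A difference of 1 or more on the log2 scale in either direction was found for 0.732% of all genes, and for U90926, Lcn2, Slpi and Ptx3 among the set. Both Ctl values were within the background range for 4 of the 8 genes, Lcn2, Saa3, Hp and Steap4. Values within that range give no measure of the fold change in RNA.

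**Figure D3:**
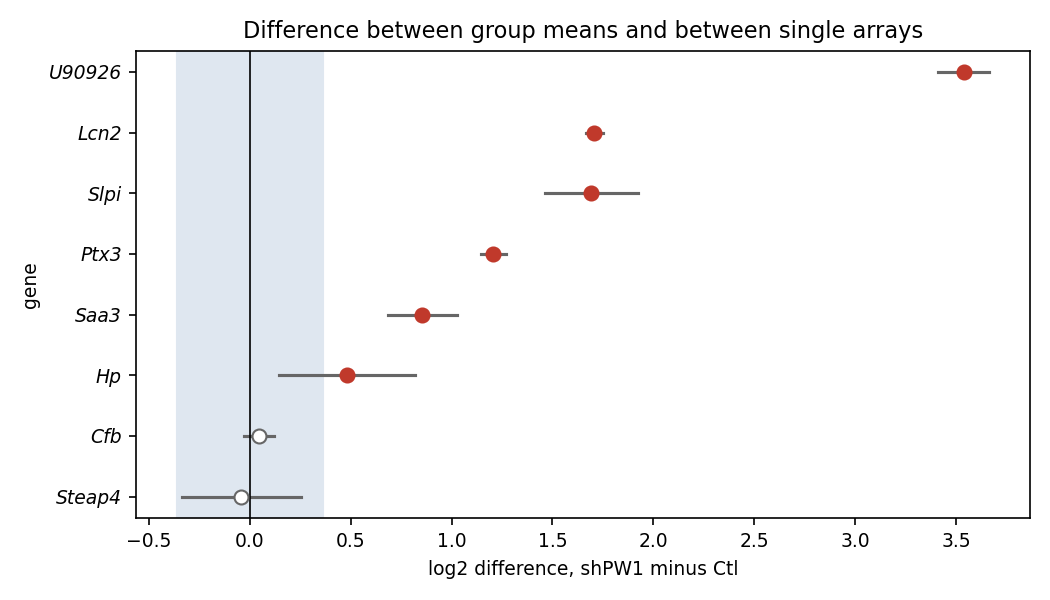
Log2 difference of shPW1 minus Ctl (horizontal axis) for the 8 measured genes (vertical axis). Points are differences of group means, filled where the arrays of the groups did not overlap, lines span the differences of the 4 pairs of arrays, and the shaded band runs from the 5th to the 95th percentile of all genes (-0.36 to 0.36); Cfb and Steap4 lie inside it and U90926 lies at 3.54.

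The genes next to those of the set were also read. The measured neighbours, 2 on each side in the gene order of GRCm38.p6, were looked up after the values of the set had been seen. Of 32 such neighbours, 3 were called higher in shPW1 and 0 lower by limma at an adjusted p under 0.05, against 4.93% of all genes called higher and 4.35% called lower. At an unadjusted p under 0.05, 7 neighbours were higher and 4 lower, and by the analysis of variance of the methods 4 were higher and 0 lower. Beside these, 5534 of all 19938 genes had an unadjusted p under 0.05 by limma. The analysis of variance called 1266 of all genes higher and 1106 lower. The log2 differences of the neighbours ran from -0.33 to 0.42.

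Beside U90926, the stress granule protein gene G3bp2 (log2 difference 0.38) and Naaa, which encodes an acid amidase (0.42), were higher, and Uso1 (0.18, adjusted p = 0.143 from limma) and Ppef2 (0.28, adjusted p = 0.272) were not called. Dhx38, an RNA helicase gene beside Hp, was the third (0.32). Beside Saa3, its relatives Saa1 and Saa4 had log2 differences of 0.00 (-0.0016) and -0.18 and were within the background range on all arrays. C2, the factor B relative of the classical pathway beside Cfb, had a difference of -0.33 (adjusted p = 0.0884) and was also within it. The 3 neighbour calls were lost with any 1 array left out.

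Other genes of the pathway were taken from 6 lists, and each was tested by limma in the fit over all probe sets with exactly 1 gene symbol. The lists were chosen with earlier results of these data known, so a share called above that of all genes may follow from the choice. The share over all genes also counts genes within the background range. Of 29 measured acute phase proteins outside the set, 2 were called higher (6.90%) and 0 lower, beside 4.93% and 4.35% of all genes, and 20 were within the background range on all 4 arrays. The share called higher is near that of all genes. Cp, which encodes the copper-bearing ferroxidase ceruloplasmin, had log2 values of 6.92 and 6.77 in Ctl and of 7.96 and 8.06 in shPW1. Its difference was 1.16 (standard error 0.08, adjusted p = 0.00748). Orm1, which encodes the acid glycoprotein orosomucoid, rose by 0.55 (adjusted p = 0.0378) from values within the background range, and its probes may share signal with its close paralogs. At an unadjusted p under 0.05, 3 acute phase genes were higher and 2 lower, and by the methods' analysis of variance 2 were higher and 0 lower. The unadjusted threshold was met by 5534 of all 19938 genes in the limma fit. The metallothioneins Mt1 and Mt2, named after their values were seen and well above the background range, had differences of -0.03 and 0.04. The median of the list was 0.01 beside -0.01 for all genes.

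Of 44 measured complement genes, limma called 3 higher (6.82%), 1 lower (2.27%) and 40 neither way, with 23 within the background range on all arrays. These shares are near the 4.93% and 4.35% of all genes. C1s, a protease of the classical pathway, went from 4.32 and 4.34 in Ctl to 5.46 and 6.01 in shPW1 (difference 1.40, adjusted p = 0.0245 from limma), and its close paralog C1s2 rose by 0.72 (adjusted p = 0.0415). Both were within the background range in Ctl, and probes of the pair may share signal. Masp1, a protease of the lectin pathway, rose by 0.48 (adjusted p = 0.0235), and C1rl, which encodes a protease related to C1r, fell by 0.54 (adjusted p = 0.0272). C1s2 was not called by the methods' analysis of variance. The median of the list was -0.01. The anaphylatoxin receptor gene C3ar1, named after its value was seen, had a difference of 0.05 (adjusted p = 0.756).

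Iron and haem genes had 7 members called higher (20.0%) and 1 lower (2.86%) of 35 measured, beside 4.93% and 4.35% of all genes, with a median difference of 0.06, and 5 lay within the background range on all arrays. Besides Cp, the metal importer Slc39a8 rose by 0.65 (adjusted p = 0.015 from limma) and Steap1, a relative of Steap4, by 0.63 (adjusted p = 0.0126). The iron exporter ferroportin, encoded by Slc40a1, fell by 0.80 (adjusted p = 0.0409), from 6.87 and 6.97 in Ctl to 5.93 and 6.32 in shPW1, and was not called after a second quantile normalization (adjusted p = 0.0533) or by the methods' analysis of variance. The other relatives of Steap4, named after their values were seen, were Steap2, which rose by 0.61 (adjusted p = 0.0124), and Steap3, with a difference of -0.31 (adjusted p = 0.0694). All 3 relatives were above the background range on every array, where Steap4 was not. Slc22a17, a receptor proposed for lipocalin-2 and also named after its value was seen, had a difference of -0.07 (adjusted p = 0.534).

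Antimicrobial effectors, whey acidic proteins and neutrophil proteases, the group to which Slpi belongs by function, had 0 called higher and 0 called lower of 44 measured by limma. At an unadjusted p under 0.05, 1 was higher and 4 were lower, whereas by analysis of variance at the methods' thresholds 1 was higher and 0 were lower. The median difference was -0.05, and 24 of the 44 were within the background range on all arrays. Pattern recognition receptors and adaptors had 3 of 35 called higher (8.57%) and 0 lower, beside 4.93% and 4.35% of all genes, with a median of 0.02 and 14 within the background range on all arrays. These were Casp1 (difference 0.73, adjusted p = 0.01 from limma), the inflammatory caspase, which stayed within the background range, the receptor Tlr6 (0.59, adjusted p = 0.0221) and the adaptor Tirap (0.49, adjusted p = 0.0231). At an unadjusted p under 0.05, 5 genes of that list were higher and 3 lower, and by the methods' analysis of variance 3 were higher and 0 lower. For both lists, the unadjusted counts stand beside 5534 of all 19938 genes under 0.05 by limma.

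The cytokines, receptors and transcription factors upstream of acute phase genes had 13 of 37 called higher (35.1%), 4 lower (10.8%) and 20 not called, beside 4.93% and 4.35% of all genes, with a median of 0.06, and 4 lay within the background range on all arrays. Il6, the main inducer of hepatic acute phase genes, went from 2.81 and 2.76 in Ctl, within the background range, to 4.70 and 4.96 in shPW1, at the edge of that range (difference 2.04, adjusted p = 0.00525 from limma). Nfkbiz, which encodes I-kappaB-zeta, a cofactor required for Lcn2 induction, went from 7.23 and 7.04 to 8.79 and 8.79 (difference 1.65, adjusted p = 0.00504). Zc3h12a, which encodes Regnase-1, a ribonuclease that degrades inflammatory transcripts, rose by 1.57 (adjusted p = 0.00383). Of the 4 C/EBP factors in the list, 2 were called higher, 1 lower and 1 neither way. Named after their values were seen, Cebpb (0.63, adjusted p = 0.0137) and Cebpd (0.55, adjusted p = 0.0283, from Ctl values within the background range) were higher, and Cebpg had a difference of 0.03 (adjusted p = 0.797). Cebpa fell by 0.52 (adjusted p = 0.0337). Among the receptor genes of the interleukin-6 family, Il6ra and Il6st rose by 0.38 each (adjusted p = 0.0346 and 0.0304 from limma), both named after their values were seen. Lifr and Osmr fell by 0.52 (adjusted p = 0.0245) and 0.42 (adjusted p = 0.045), and the call of Osmr was lost when array medians were subtracted (adjusted p = 0.0587).

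**Figure D4:**
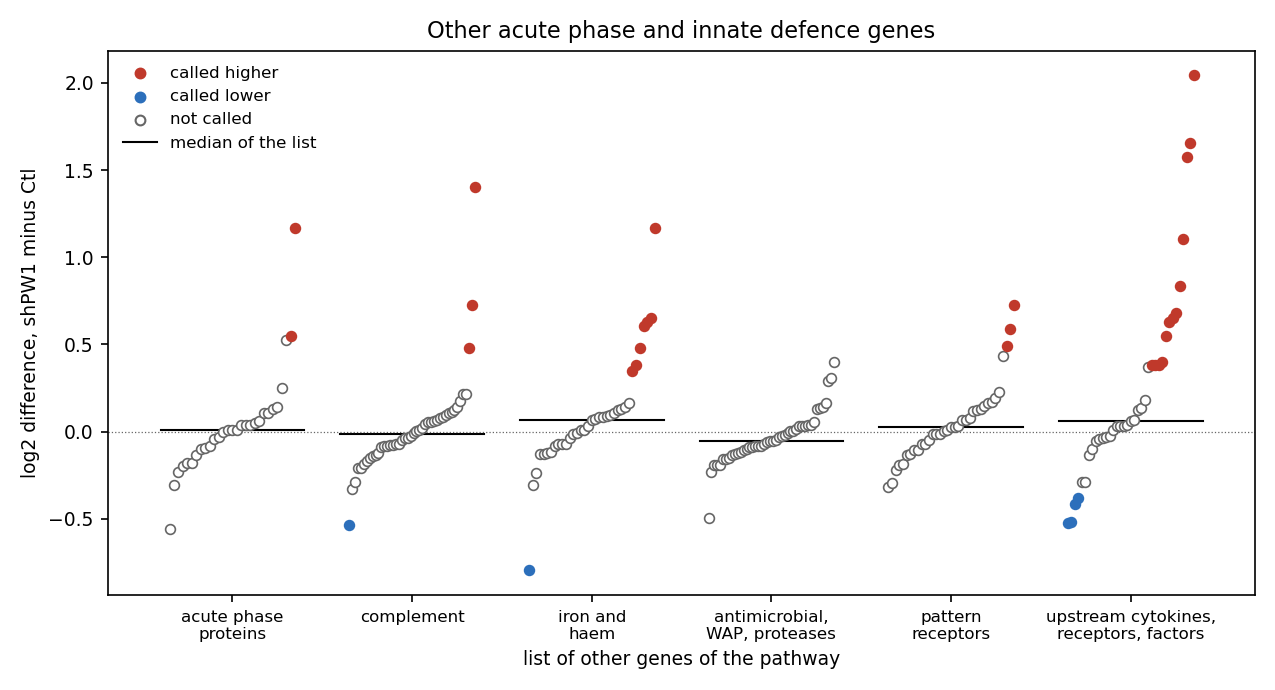
Difference in log2 expression, shPW1 minus Ctl (vertical axis), of every measured member of the 6 lists (horizontal axis), ordered by its value within a list. Red points were called higher, blue points lower and open points neither by limma, and black lines are list medians; the highest points are Il6 at 2.04 and Nfkbiz at 1.65, and the lowest is Slc40a1 at -0.80.

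Several genes of the set are also products of neutrophils, macrophages, hepatocytes or fat cells, and the markers of those cells were counted. Of 13 measured neutrophil markers, 0 were called higher or lower by limma, 1 was higher at an unadjusted p under 0.05 and 0 by the methods' analysis of variance. Of all 19938 genes, limma called 4.93% higher and 4.35% lower, and 5534 had an unadjusted p under 0.05. The lists are short and many of their genes are dim, so whether such cells were present was not tested by these counts. S100a8, S100a9 and Elane were among the 10 of the 13 within the background range on all 4 arrays, while Cd177 was above it on every array. The summed signal of the list, on the linear scale, ran from 273 to 286 in Ctl and from 272 to 274 in shPW1. Here and below, such a sum is weighted towards the brightest genes of a list. Of 15 macrophage and monocyte markers, 0 were called in either direction by limma, at an unadjusted p under 0.05 and by the analysis of variance, and 9 were within the background range throughout. Their summed signal was 467 to 481 in Ctl and 447 to 486 in shPW1. Ptprc, Adgre1 and Csf1r were within the background range, while Cd68, Cd14, Cx3cr1, Tyrobp and C1qa were above it on every array.

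Of 11 hepatocyte markers, 0 were called by limma, 0 were higher and 2 lower at an unadjusted p under 0.05, and 0 were called by the analysis of variance. Alb and Ttr were among the 8 of the 11 within the background range on all arrays. Apoa1 and Hnf4a were above it on every array, and Tat was above it on the Ctl arrays alone. The summed signal was 289 to 294 in Ctl and 271 to 273 in shPW1. Of 9 adipocyte markers, 0 were higher and 1, the regulator Pparg, was lower (difference -0.58, adjusted p = 0.019 from limma). Adipoq, Fabp4 and Lep, 3 of the 9, were within the background range on all arrays, and the others, Pparg and Lpl among them, were above it on 3 arrays or more. The summed signal was 799.8 to 800.0 in Ctl and 630.5 to 648 in shPW1. Pparg and Lpl were the brightest of the list, with log2 means of 8.49 and 7.92 in Ctl and 7.91 and 7.68 in shPW1. At an unadjusted p under 0.05, 0 adipocyte markers were higher and 2 lower, and by the analysis of variance 0 were higher and 1 lower. The hepatocyte and adipocyte counts stand beside 4.93% of all genes called higher and 4.35% lower by limma. An unadjusted p under 0.05 was found for 5534 of all 19938 genes.

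Of 16 markers of mesoangioblasts, pericytes and mesenchymal progenitors, 1 (Cd44) was called higher by limma and 5 lower, Peg3 itself, Cspg4, Pdgfrb, Pdgfra and Des, beside 4.93% and 4.35% of all genes. At an unadjusted p under 0.05, 2 were higher and 9 lower, and by the analysis of variance 1 was higher and 7 lower. Of all 19938 genes, 5534 had an unadjusted p under 0.05 by limma, and the analysis of variance called 1266 higher and 1106 lower. The summed signal of the progenitor markers was 41817 to 41826 in Ctl and 37970.2 to 38823 in shPW1. Vim, Acta2, Col1a2 and Col1a1 were the brightest of the list. Of 10 myogenic markers, 1 (Vcam1) was higher and 4 were lower, Myod1, Myog, Des and Cdh15, with the same counts at an unadjusted p under 0.05 and by the analysis of variance. Their summed signal was 4170.4 to 4271 in Ctl and 3441 to 3457 in shPW1. Of 10 epithelial markers, 0 were higher and 2, Krt14 and Krt19, were lower, with 3 lower at an unadjusted p under 0.05 and 2 by the analysis of variance. Their summed signal was 622 to 646 in Ctl and 480.0 to 489 in shPW1. Krt14, the brightest of the list, had log2 means of 8.03 in Ctl and 7.07 in shPW1. Of 10 endothelial and 7 lymphocyte markers, limma called 0, and at an unadjusted p under 0.05 it was 0 and 2, with 0 by the analysis of variance. The part of these shifts in the values of U90926 and the defence genes was not tested.

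All calls above rest on 2 arrays a group. With any 1 of the 4 arrays left out, a group keeps only 1 array, and the calls above were lost. With all rows of the table tested, calls were read for Peg3 and for the called genes with the largest differences in each list. Of these, Peg3, Il6, Nfkbiz and Zc3h12a were still called. U90926, the other members of the set and the genes nearest to U90926 in pattern were not looked up under that setting.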

How the data were processed

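The members and lists were chosen with earlier results of these data known. RNA of 2 extractions of Ctl and 2 of shPW1 AdmMABs was hybridized to Affymetrix Mouse Gene ST arrays. The authors deposited log2 expression values made by RMA in Partek (version 6.4 in the submitters' processing notes) without detection calls, and precision is limited by having 4 arrays. Of 35556 rows, the 21789 with exactly 1 gene symbol were tested across all genes by a linear model with moderated variances (limma 3.58.1, R 4.3.3, functions lmFit and eBayes) (2 residual and 2.72 prior degrees of freedom, two-sided p-values, Benjamini-Hochberg adjustment over all of them), checked beforehand on simulated data. A gene counted once, by its brightest probe set.

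Named genes were the 9 members, Peg3, up to 3 called genes of each list and direction with the largest difference, and the 3 nearest to U90926 in pattern (predicted genes left out). Promoters were searched over 250 bases. The alternatives were a filter on dim probe sets (mean log2 value of 4.96 or less), the methods' analysis of variance (p under 0.05, fold change over 1.2), all rows tested, array medians subtracted, quantile normalization repeated, a prior that was trended and robust, the mean over a gene's probe sets, a block for the replicate number, and fits without 1 array.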

Additional observations from a re-analysis of the deposited data

How the results depend on the processing

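The log2 difference of U90926 lay between 3.44 and 3.63 under every alternative run, and the median of the 8 genes between 0.96 and 1.10. The count of genes with both shPW1 arrays above both Ctl arrays was 7 after either other normalization. With an array left out, a group keeps only 1 array, so that count has no counterpart there. Among single genes, Lcn2, Ptx3 and Cfb moved by more than the SD between replicates when array medians were subtracted (1.77, 1.27 and 0.10).

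Calls of the lists depended on the test. Over all genes, 982 were higher and 868 lower, against 1765 and 1562 without dim probe sets, 30 and 38 with all rows tested, 1477 and 727 with array medians subtracted (67.0% higher in place of 53.1%), 2449 and 1859 with a trended robust prior, 232 and 248 with the replicate block, and 1 and 0 by the methods' analysis of variance after adjustment (1266 and 1106 at its own thresholds). With an array left out, every list had 0 called higher and 0 lower (lowest 0, highest 0), and so it was by that analysis of variance after adjustment. With all rows tested, the upstream list had 4 higher and 0 lower and each other list had 0. Without dim probe sets, 1 acute phase gene, 2 iron genes and 2 antimicrobial genes were lower. With array medians subtracted, 1 acute phase gene and 1 antimicrobial gene were lower and 1 antimicrobial gene was higher, as after quantile normalization, which left 0 iron genes lower. The trended robust prior gave 1 acute phase gene, 5 iron genes, 3 antimicrobial genes and 1 pattern receptor lower. By the methods' thresholds, 2 complement genes were lower and 1 antimicrobial gene was higher.

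Replicate numbers were shared between the groups, but nothing in the labels pairs the extractions, and the deviations of replicate 1 in the groups had a correlation of -0.11 over probe sets. With the replicate number as a block, 1 acute phase gene, 1 complement gene, 4 iron genes, 1 pattern receptor and 8 upstream genes were higher, and 0 complement and 0 upstream genes were lower. With the numbers crossed, an alternative added after the correlation was seen, these were 1, 0, 3, 1 and 7 higher, with 0 complement, 0 iron and 0 upstream genes lower. The difference of Peg3 was -2.47 to -2.21 with an array left out, when it was no longer called, and -2.34 by the analysis of variance after adjustment (adjusted p = 0.105). The causes of these shifts were not tested. A value within the background range gives no bound on a fold change.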
